A study of Mus musculus with 10 samples.

Results

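The genes described are the 7 genes of acetylcholine handling and motor neuron identity named *Chat*, *Slc18a3*, *Slc5a7*, *Ache*, *Isl1*, *Phox2a* and *Prph*. They were chosen by symbol, as the rows of the deposited table whose Ensembl identifier maps to these names, and all 7 were found among 18444 genes. Whole brain was taken at postnatal day 3 from 10 mice, all male and C57BL/6N, and its transcripts were measured by RNA-seq. HT mice (n = 5) were heterozygous for *Arid1b*, which encodes a DNA-binding subunit of the BAF chromatin remodelling complex. Their mutant allele (C57BL/6N-*Arid1b* em1Tcp) was made with the Cas9 nickase, which left a deletion at exon 5 with an insertion of TT, and it truncates the protein. WT mice (n = 5) were wild type at *Arid1b*. The HT mice came from crosses of male heterozygotes with female wild types, the mutation is constitutive and a single allele was studied. Each mouse gave 1 library, and the litter of each mouse is not given in the sources used here.

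Acetylcholine is made by choline acetyltransferase, packed into vesicles by the vesicular acetylcholine transporter, split by acetylcholinesterase after release, and remade from choline that a high-affinity transporter returns to the terminal. In the mammalian brain its users include neurons of the basal forebrain, striatal interneurons, a few brainstem nuclei and the cranial motor neurons. Motor neurons take their identity from homeodomain factors such as *Isl1* and, in some cranial and visceral nuclei, *Phox2a*, and their axons are rich in the intermediate filament peripherin. None of the latter genes is particular to motor neurons. *Isl1* is also used in the developing striatum, *Phox2a* in noradrenergic neurons, and *Prph* in neurons with long peripheral axons, including sensory ganglia.

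*Chat* and *Slc18a3* share 1 locus. In GENCODE M21 (GRCm38), *Chat* (ENSMUSG00000021919) lies at chr14:32408203-32465989 on the minus strand and has 8 annotated transcripts. *Slc18a3* (ENSMUSG00000100241) lies at chr14:32462438-32464850 on the same strand, as 1 exon of 2413 bases that begins 1139 bases downstream of the *Chat* start. It lies within an intron of 4 of the 8 *Chat* transcripts, and no *Chat* exon overlaps it. *Slc5a7* (chr17:54273590-54299034, minus strand) is on the chromosome of *Arid1b*, 48.93 Mb away. The others are *Ache* (chr5:137287519-137294466, plus strand), *Isl1* (chr13:116298281-116309689, minus strand), *Phox2a* (chr7:101818313-101822726, plus strand) and *Prph* (chr15:99055174-99058978, plus strand). The share of 31-base words that a member has in common with other genes was highest for *Phox2a*, at 3.25%, all with *Inppl1*. For *Ache* it was 1.79%, spread over 1059 other genes. For *Prph* it was 0.543%, shared with the related filament genes *Des* and *Nefm*.

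The promoters of 4 members are shown because these were the members whose lowest library was the same WT brain, as described further on. Each window runs from 250 bases before to 50 bases after the RefSeq start (GRCm38.p6), 5′ to 3′ on the strand of the gene. Capitals mark TAAT on either strand (ATTA when read on the strand shown), the core letters bound by many homeodomain proteins. In order, the windows lie at chr14:32465860-32466159 (minus), chr14:32464801-32465100 (minus), chr13:116309639-116309938 (minus) and chr15:99054924-99055223 (plus).
Chat: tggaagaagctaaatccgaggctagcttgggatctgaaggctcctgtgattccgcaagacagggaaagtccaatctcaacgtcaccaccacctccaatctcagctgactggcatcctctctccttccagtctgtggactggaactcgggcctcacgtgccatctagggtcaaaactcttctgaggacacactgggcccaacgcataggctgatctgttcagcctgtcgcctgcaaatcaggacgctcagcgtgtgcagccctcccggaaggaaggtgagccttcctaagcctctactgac
Slc18a3: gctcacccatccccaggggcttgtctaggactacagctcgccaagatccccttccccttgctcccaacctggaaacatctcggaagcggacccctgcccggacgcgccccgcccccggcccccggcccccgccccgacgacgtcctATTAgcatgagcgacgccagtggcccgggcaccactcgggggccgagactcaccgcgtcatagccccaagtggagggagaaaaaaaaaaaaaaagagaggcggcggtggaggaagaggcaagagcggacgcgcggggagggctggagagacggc
Isl1: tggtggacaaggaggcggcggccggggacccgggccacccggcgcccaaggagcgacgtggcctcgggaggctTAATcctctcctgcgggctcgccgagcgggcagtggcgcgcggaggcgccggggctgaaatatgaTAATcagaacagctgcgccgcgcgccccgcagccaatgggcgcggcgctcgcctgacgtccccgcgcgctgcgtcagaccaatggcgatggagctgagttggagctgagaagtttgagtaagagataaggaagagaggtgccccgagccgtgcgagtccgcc
Prph: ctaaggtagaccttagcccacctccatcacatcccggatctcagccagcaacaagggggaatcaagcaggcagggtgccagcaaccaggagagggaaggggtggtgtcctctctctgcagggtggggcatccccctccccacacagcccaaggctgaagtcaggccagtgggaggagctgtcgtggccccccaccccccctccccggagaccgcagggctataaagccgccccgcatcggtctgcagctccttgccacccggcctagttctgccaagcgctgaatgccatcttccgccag
The letters TAAT were present once in the *Slc18a3* window, beginning at position -104 (the start counted as 0), and at -177 and -112 in the *Isl1* window. They were absent from the windows of the other 5 members. Of all 32851 promoter windows, 58% hold TAAT, so 2 of 7 is not above the general level. The letters CANNTG, the E box read by basic helix-loop-helix factors, were in 6 of 7 member windows and in 72.3% of all windows. The GC content was 67% for *Slc18a3*, 69% for *Isl1*, 71.3% for *Phox2a* and 74% for *Ache*, against a median of 52.7% over all windows. *Slc5a7*, at 44.7% GC with 1 CG pair, lay on the other side of that median, and *Chat*, at 55.7%, lay near it. The promoters of the adjoining *Chat* and *Slc18a3* therefore differed in base composition, with 10 and 27 CG pairs in 300 bases.

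Values are normalised read counts, that is, estimated reads divided by the size factor of the library. The estimated depth was 25.04 M to 31.21 M reads per library (M, 1000000), and 1 read was worth 0.901 to 1.13 normalised counts. The edited gene *Arid1b* averaged 2101 ± 343 over the HT and 3335 ± 203 over the WT libraries (SD, n = 5 per group), with no overlap of the groups (exact permutation p = 0.00794, the smallest that 5 against 5 libraries can give). Its limma adjusted p was 0.390 with all libraries, 0.000247 without HT 4 and 0.000526 without HT 4 and WT 2, so that its call across all genes depended on HT 4. The neuronal marker *Tubb3* ranged from 44485 to 51819 over the libraries. The library HT 4 stood apart, with a median absolute log2 deviation from the gene means of 0.209, where the others had 0.0772 to 0.108. The pituitary markers summed to 2537 in WT 2 and 892 in WT 5, against 21 to 93.7 in the other 8 libraries. Values without HT 4 or WT 2 are given beside the results that they move most.

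To ask how abundant the cholinergic genes were relative to each other, levels were divided by the median annotated transcript length. *Ache* was the highest at 5119 ± 383 normalised counts per kilobase (SD, n = 10), followed by *Isl1* at 335 ± 25.5. *Prph* (92.6 ± 21.9) and *Slc5a7* (65.4 ± 7.96) came next, with ranges over the libraries that overlapped. *Chat* (36.1 ± 7.18) and *Slc18a3* (31.1 ± 4.47) likewise overlapped, and *Phox2a* was the lowest at 8.52 ± 4.59. The breakdown enzyme was thus far more abundant per kilobase than the synthetic enzyme or either transporter. The order of the pair at the *Chat* locus depended on the length used. The annotated *Chat* transcripts include short ones (median 658.5 bases, longest 2858), and by the longest transcript *Chat* had 8.32 ± 1.65 per kilobase, below *Slc18a3* in every library and overlapping *Phox2a* at 5.89 ± 3.17. *Ache*, whose median transcript of 438 bases is also short, was still the highest at 608 ± 45.5 by its longest transcript of 3687 bases.

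**Figure D1:**
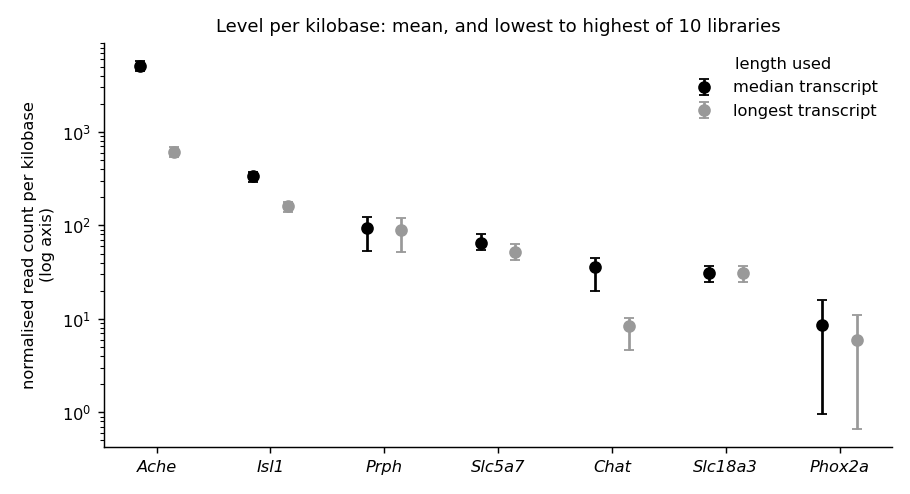
Level of each member per kilobase of transcript (log axis); points are means over the 10 libraries and bars run from the lowest to the highest library. Black uses the median annotated transcript length and grey the longest; *Ache* is highest by both, and *Chat* moves from 36.1 to 8.32.

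The main comparison asked whether the loss of 1 *Arid1b* allele shifted these genes in the early postnatal brain. *Chat*, *Isl1* and *Phox2a* had the widest separation of group means relative to spread, the first 2 with higher means in HT and *Phox2a* with a lower mean, but the groups overlapped for every member. None of the 6 members tested across genes passed the limma threshold (adjusted p = 0.9997 for each). *Phox2a* fell below the minimum mean of 10 and was compared by the exact permutation test alone. Across all genes 0 of 17020 passed (0%), so the absence of a call is the general result in these libraries.

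**Figure D2:**
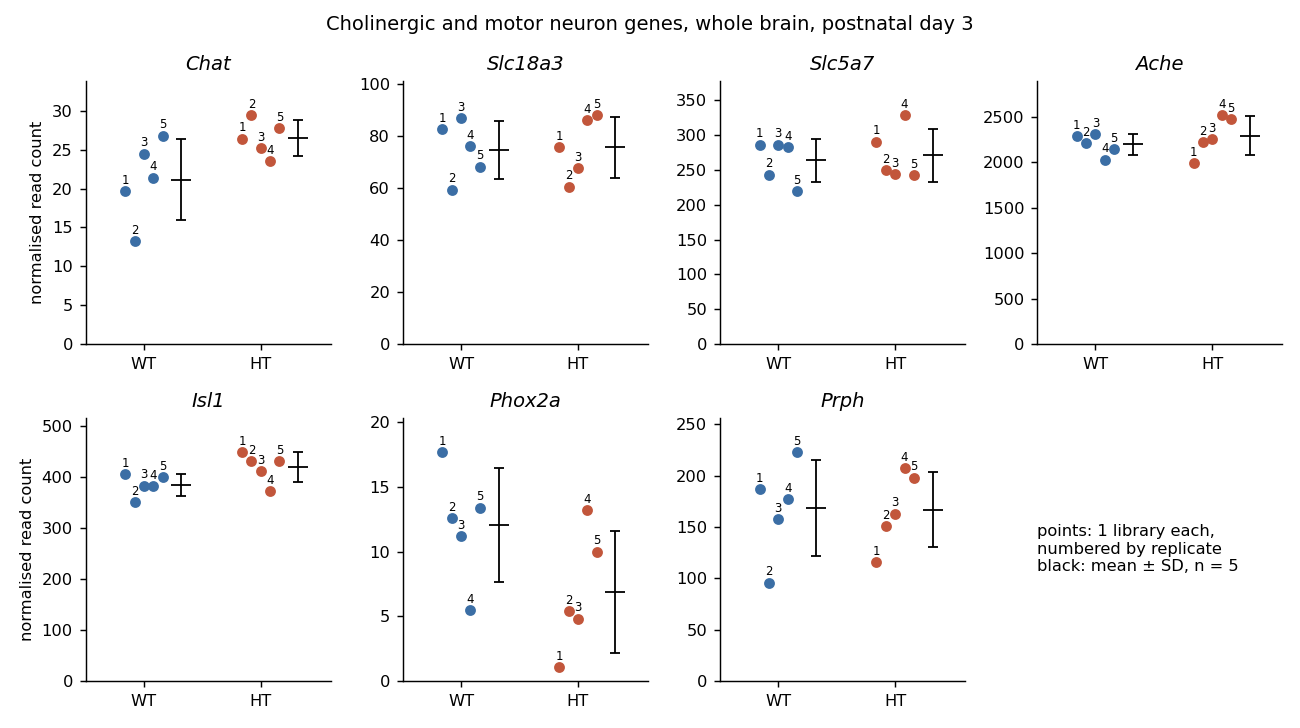
Normalised read counts of the 7 members by library, WT in blue and HT in red, numbered by replicate; black marks are the mean ± SD (n = 5 per group). The groups overlap in all 7 panels, and WT 2 is the lowest point for *Chat*, *Slc18a3*, *Isl1* and *Prph*.

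*Chat*, the synthetic enzyme, had normalised counts of 26.4, 29.4, 25.2, 23.5 and 27.8 in HT 1 to HT 5, and of 19.7, 13.2, 24.5, 21.4 and 26.8 in WT 1 to WT 5. The HT libraries lay close together, and WT 3 and WT 5 lay within their range while WT 1, WT 2 and WT 4 lay below it. HT libraries averaged 26.5 ± 2.29 and WT libraries 21.1 ± 5.21 (SD, n = 5 per group). The log2 fold change was 0.35 ± 0.22 (SE; 95% interval -0.12 to 0.81), with a limma p of 0.136 and an exact permutation p of 0.0635. Without WT 2, the lowest library, it was 0.19. With a mean of 23.8 normalised counts, the *Chat* coefficient of variation over the 10 libraries (19.9%) was close to the 20.5% that counting error alone would give.

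*Slc18a3*, the vesicular transporter, had 75.6, 60.5, 67.7, 86.2 and 87.9 in HT 1 to HT 5 and 82.6, 59.4, 86.8, 76.2 and 68.2 in WT 1 to WT 5. The groups covered the same range. HT averaged 75.6 ± 11.8 and WT 74.6 ± 11 (SD, n = 5 per group), and the log2 fold change was 0.02 ± 0.15 (SE; interval -0.31 to 0.35; exact permutation p = 0.865).

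*Slc5a7*, the choline transporter of cholinergic terminals, had 290.4, 249, 244, 328 and 242 in HT 1 to HT 5. In WT 1 to WT 5 it had 286, 243, 286, 282 and 219.96. HT 4 was the highest library and WT 5 the lowest, and the remaining libraries of both groups were mixed. The log2 fold change was 0.04 ± 0.11 (SE; interval -0.21 to 0.28; exact permutation p = 0.802), from means of 271 ± 37.9 and 263 ± 30.2 (SD, n = 5 each).

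*Ache*, which ends the signal by splitting acetylcholine, had 1989.7, 2219.9, 2249, 2514 and 2473 in HT 1 to HT 5 and 2285, 2205, 2308, 2029 and 2147 in WT 1 to WT 5. Both the lowest and the highest library were HT. Its log2 fold change was 0.06 ± 0.07 (SE; interval -0.09 to 0.20; exact permutation p = 0.444), from 2289 ± 212 and 2195 ± 113 (SD, n = 5 each). It was 0.022 without HT 4 and 0.11 without HT 1. The interval was the narrowest among the members. Its spread of 7.48% exceeded a counting error of 2.11%.

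*Isl1*, the LIM homeodomain factor of motor and striatal neurons, had 449, 432, 411, 372 and 432 in HT 1 to HT 5 and 406, 351, 383, 382 and 399.5 in WT 1 to WT 5. The HT libraries other than HT 4 lay above every WT library, and HT 4 was below 4 of the 5 WT libraries. HT averaged 419 ± 29.6 and WT 384 ± 21.3 (SD, n = 5 per group). The log2 fold change was 0.12 ± 0.07 (SE; interval -0.03 to 0.28; limma p = 0.113; exact permutation p = 0.0873). Without HT 4 it was 0.17 (limma p = 0.0312, adjusted p = 0.560; exact permutation p = 0.0159), and without both HT 4 and WT 2 it was 0.13 (limma p = 0.0767; exact permutation p = 0.0286, the smallest that 4 against 4 libraries can give). The groups of 4 HT and 5 WT libraries did not overlap for *Isl1*, as for 2.96% of all genes tested, and HT 4 was left out because it stood apart over all genes.

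*Phox2a*, a homeodomain factor of cranial motor and noradrenergic neurons, had 1.08, 5.37, 4.81, 13.2 and 10 in HT 1 to HT 5 and 17.7, 12.6, 11.2, 5.46 and 13.4 in WT 1 to WT 5. These values rest on about 1 read in HT 1 and on fewer than 20 in any library. HT 4 and HT 5 lay among the WT libraries, and WT 4 lay just above the 3 lower HT libraries. The means were 6.89 ± 4.74 and 12.1 ± 4.41 (SD, n = 5 each), and the difference on the log2(value + 1) scale was -0.92 (exact permutation p = 0.0952). Without HT 4 the difference was -1.20 (exact permutation p = 0.0476), and without HT 1 it was -0.50. With no filter on the mean, limma gave an interval of -1.98 to 0.14 (adjusted p = 0.9997).

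*Prph*, the peripherin filament, had 116, 151, 163, 207 and 198 in HT 1 to HT 5 and 187, 95.8, 158, 177 and 223 in WT 1 to WT 5. WT libraries were both the lowest and the highest. The means were 167 ± 36.6 and 168 ± 46.7 (SD, n = 5 each), with a log2 fold change of 0.01 ± 0.21 (SE; interval -0.45 to 0.48; exact permutation p = 0.960). The sign of this value turned when WT 2 was left out (-0.17). The libraries of *Prph* differed 2.32-fold from lowest to highest, with a coefficient of variation of 23.6% over all 10, where counting error alone would give 7.73%. In whole tissue, fewer cells of a type and less RNA per cell cannot be told apart.

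**Figure D3:**
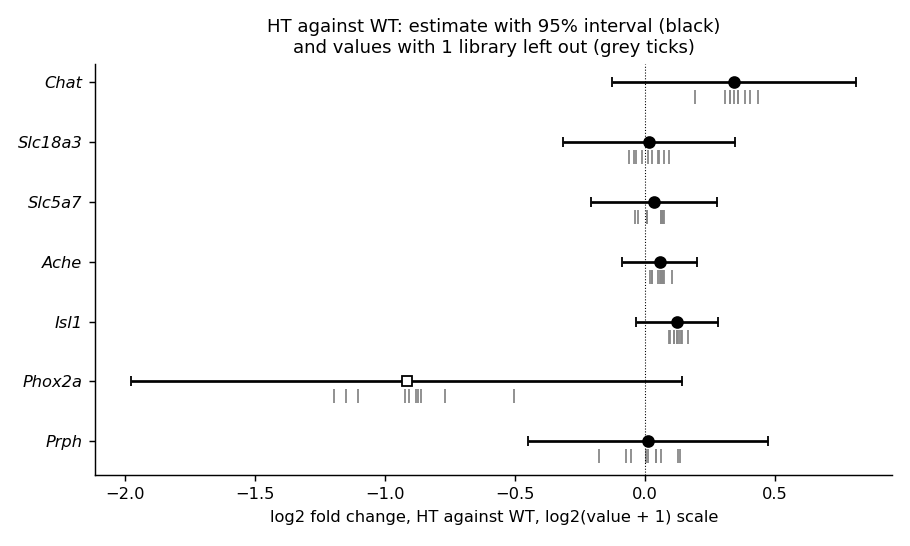
Log2 fold change of HT against WT for each member, on the log2(value + 1) scale; black bars are limma 95% intervals (open square: *Phox2a*, fitted with no filter on the mean), and grey ticks are the values with 1 library left out. All 7 intervals include 0, and the estimates for *Slc18a3*, *Slc5a7* and *Prph* change sign when single libraries are left out.

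Among the members, 0 of 7 had groups that did not overlap, against 0.629% of all genes tested. An unadjusted limma p under 0.05 was reached by 0 of 6, against 3.41% of all genes. All 6 tested members had a log2 fold change above 0, where 46.4% of all genes did, with a median of 0.05 against -0.01. This direction was not stable. It held for 3 of 6 without HT 4, for 4 of 6 without WT 2 and for 3 of 6 without both.

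The members also differed between brains of the same genotype, and 1 WT brain, singled out after its values were seen, was low in several of them. WT 2 was the lowest of the 10 libraries in 4 of 6 tested members, where it was the lowest in 6.02% of all genes. HT 4 was the highest in 2 of 6, *Slc5a7* and *Ache*, against 24.7% of all genes. *Chat* in WT 2 was 52.9% of the mean of the other libraries, *Prph* 54.6%, *Slc18a3* 77.3% and *Isl1* 86.2%. *Slc5a7* (90.2%) and *Ache* (98.2%) were nearer to the other libraries, and *Phox2a* (138%) was above them. For *Slc18a3* HT 2 was nearly as low as WT 2 (60.5 against 59.4). The coefficient of variation of *Chat* over the 10 libraries (19.9%) did not exceed its counting error (20.5%). WT 2 also had the lowest sum of the 12 caudal Hox genes, which mark the hindbrain and more caudal levels, at 62.7, and 10 of the 12 were lowest there. The Hox sum was 274, 191, 1583, 621 and 1917 in HT 1 to HT 5 and 468, 721, 945 and 843 in the other WT libraries, so the caudal signal varied widely in both genotypes. The part of the caudal tissue content in the member values was not tested beyond the following alternative. With the mean log2 level of the Hox genes as a covariate, the log2 fold change was 0.30 for *Chat*, 0.12 for *Isl1* and -0.07 for *Prph*, and no member passed the threshold.

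**Figure D4:**
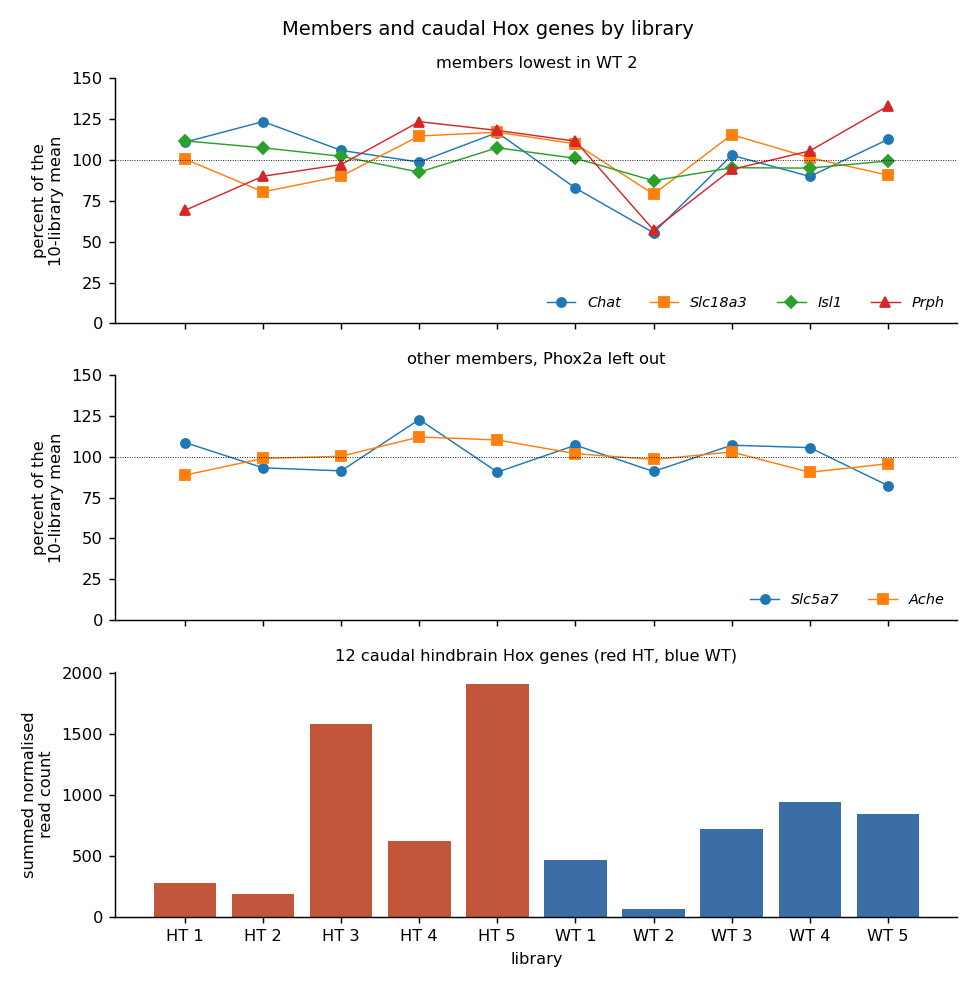
Members as a percent of their own 10-library mean, by library (upper and middle panels), and the summed normalised read count of 12 caudal hindbrain Hox genes (lower panel, red HT and blue WT). *Chat*, *Prph* and the Hox sum (62.7) are lowest in WT 2, where *Isl1* is at 87.4%, *Slc5a7* at 91.0% and *Ache* at 98.4%.

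Members were correlated over the 10 libraries on the log2 scale, in 21 pairs. HT and WT were pooled and the group means were left in, as for the marker scores below. A difference between the groups therefore enters r, and *Chat* and *Isl1* both had higher means in HT. Over all 10 libraries the strongest relation was between *Chat* and *Isl1* (Pearson r = 0.756, permutation p = 0.00688; Spearman rho = 0.733, permutation p = 0.0206). It did not pass adjustment over the 21 pairs (adjusted p = 0.145 for r and 0.432 for rho). Without the 2 libraries farthest from the median of *Chat*, r was 0.766, and without WT 2, the lowest library for both genes, it was 0.572 (permutation p = 0.110). *Phox2a* and *Prph* had r = 0.429 (permutation p = 0.218) and rho = 0.552 (permutation p = 0.106) over all libraries, r = 0.128 without the 2 farthest, and r = 0.855 without WT 2 (permutation p = 0.00523, adjusted p = 0.110), which was then the strongest pair. *Chat* and *Slc18a3*, despite their shared locus, had r = 0.256 (permutation p = 0.513), rho = 0.0303 (permutation p = 0.946) and r = -0.419 without the 2 farthest libraries. *Chat* and *Prph* had r = 0.524 (permutation p = 0.121) and rho = 0.152 (permutation p = 0.681), and r was -0.217 without WT 2, so that this relation rests on that library. Between the 7 members and the scores of the 10 marker lists, 70 relations were computed and the smallest adjusted p was 0.178. *Prph* and the Hox score had r = 0.780 (permutation p = 0.00825) and rho = 0.612 (permutation p = 0.0662), with adjusted p = 0.178 and 0.635, and r = 0.538 without the 2 farthest libraries. *Slc5a7* and the forebrain score had r = -0.789 (permutation p = 0.00507) and rho = -0.818 (permutation p = 0.00583), with adjusted p = 0.178 and 0.408, and r = -0.450 without the 2 farthest libraries. HT 4 had the highest *Slc5a7* and the lowest forebrain marker sum, and without HT 4 r was -0.634 (permutation p = 0.0728). The adjusted p of r was also 0.178 for *Slc5a7* with the pan-neuronal (r = -0.734), sensory ganglion (0.738) and noradrenergic (0.727) scores. In that order r was -0.486, 0.442 and 0.312 without the 2 farthest libraries, and -0.516, 0.548 and 0.484 without HT 4. The adjusted p was 0.178 too for *Ache* with the striatal score (r = 0.743; rho = 0.539, permutation p = 0.113). There r was 0.435 without the 2 farthest libraries and 0.742 without HT 4.

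As a description, the genes whose values followed each member most closely were sought among 14046 genes, after removing the group means, over the 10 libraries. For *Chat* they were *2900076A07Rik* (r = 0.936), *Tbl3* (0.913) and *Snx11* (0.893). For *Slc18a3* they were *Trmt10a* (0.977), *Ifi27* (0.960) and *Dennd5a* (0.924), and for *Slc5a7* *Entpd2* (0.955), *Nek2* (0.948) and *Shpk* (0.942). *Ache* was followed by *Nat8l* (0.982), *Lrrc75a* (0.975) and *Camk1* (0.956), and *Isl1* by *Cpeb3* (0.959), *4931406P16Rik* (0.951) and *Lrrc75b* (0.944). *Phox2a* was followed by *Blvrb* (0.977), *Vegfb* (0.964) and *Nat8l* (0.956), and *Prph* by *Sub1* (0.933), *Gtf2f1* (0.932) and *Afg1l* (0.916). The members themselves were left out of the candidates, so the search cannot show whether they followed one another. With 10 libraries and this many candidates, high values of r arise for any gene, and no p is given.

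Around the members, 5 lists of cholinergic genes were examined, and 0 genes of any list passed the threshold in either direction. Among the muscarinic receptors, the G protein-coupled receptors for acetylcholine, 3 of 5 had a log2 fold change above 0 and the median was 0.03. *Chrm1* had the highest mean of the list, 1172 ± 196 over HT libraries and 1325 ± 58.4 over WT libraries (SD, n = 5 per group). Its log2 fold change was -0.19 ± 0.11 (SE; limma p = 0.0942; exact permutation p = 0.0397). This rested in part on HT 4 (828), and without it the value was -0.07. *Chrm3* had 0.05 and *Chrm2* 0.07, or 0.092 and 0.14 without HT 4. Of the nicotinic subunits, which form the acetylcholine-gated channels, 10 of 16 were measured, 3 had values above 0 and the median was -0.07. The main brain subunits *Chrnb2* (-0.03 ± 0.05, SE) and *Chrna4* (0.05 ± 0.05, SE) were those with the highest mean counts. *Chrnb4* (-0.25, exact permutation p = 0.175) and *Chrnb3* (0.23, exact permutation p = 0.278) had the smallest limma p. The subunits *Chrna1*, *Chrna9*, *Chrna10*, *Chrnd*, *Chrne* and *Chrng* were not analysed here.

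Of 9 genes of acetylcholine breakdown and choline supply, 6 had values above 0, with a median of 0.03. *Bche*, the second cholinesterase, had the smallest p in the list. It had 158, 139.9, 126, 131 and 119.7 in HT 1 to HT 5 and 173, 213, 231, 202 and 133 in WT 1 to WT 5. WT 5 lay within the HT range and the other WT libraries above it. The log2 fold change was -0.47 ± 0.15 (SE; limma p = 0.00659, adjusted p = 0.9997; exact permutation p = 0.0238), and it was -0.42 without HT 4 and WT 2. The exact permutation p was 0.0397 without HT 4, 0.0476 without WT 2 and 0.0857 without both. *Bche* had the smallest unadjusted limma p of the 5 lists and did not pass adjustment over all genes. *Pcyt1b* (0.03) and *Chka* (0.04), enzymes of phosphatidylcholine synthesis from choline, had the highest mean counts. HT 4 was low for both, and without it the values were 0.10 (limma adjusted p = 0.530; exact permutation p = 0.0159) and 0.088 (limma adjusted p = 0.575; exact permutation p = 0.0159). *Prima1*, the membrane anchor of *Ache* in brain, had 0.29 ± 0.34 (SE).

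Of 17 cholinergic and motor neuron factors, *Isl2* and *Mnx1* were not analysed here, *Calcb* was below the minimum mean, and 14 were tested. The log2 fold change was above 0 in 13 of 14 with a median of 0.16, in 11 of 13 without HT 4 (*Lhx3* then fell below the minimum mean), and in 10 of 13 with a median of 0.07 without HT 4 and WT 2. WT 2 was the lowest library in 7 of the 14. *Lhx3*, a LIM homeodomain partner of *Isl1* in motor neurons that the pituitary also uses, averaged 14.1 ± 5.72 over HT and 7.57 ± 3.08 over WT libraries (SD, n = 5 per group; exact permutation p = 0.0635). Without HT 4 its log2 difference was 0.63 (exact permutation p = 0.135). *Lhx3* passed the minimum mean only through the HT libraries, where its mean was higher, so its limma value is not given and its place in the count above follows from that filter. *Tbx20*, a T-box factor of cranial motor neurons, averaged 10.8 ± 4.94 over HT and 23.7 ± 13.4 over WT libraries (-1.05 ± 0.45, SE; limma p = 0.0377; exact permutation p = 0.0794). Both rest on at most 41 normalised counts per library, and *Tbx20* did not pass the threshold (limma adjusted p = 0.9997). *Ret*, the receptor subunit for GDNF ligands, had the highest mean count of the list. Its log2 fold change was 0.15 ± 0.09 (SE), and 0.076 without WT 2. *Ecel1* came next by mean count, with a log2 fold change of 0.10 ± 0.09 (SE), and 0.058 without HT 4 or 0.15 without WT 2.

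The 4 neuronal intermediate filaments that share the axon with peripherin all had values above 0, with a median of 0.13, and all 4 were lowest in WT 2. *Nefl*, the light neurofilament subunit, had 8199, 8129.7, 9001, 10915 and 9215 in HT 1 to HT 5 and 8667, 7150.3, 8413, 7981 and 8045 in WT 1 to WT 5. HT 4 was well above the others. Its log2 fold change was 0.17 ± 0.08 (SE; limma p = 0.0520; exact permutation p = 0.0794), and without HT 4 and WT 2 it was 0.06. *Nefh* moved from 0.23 to 0.01 and *Ina* from 0.02 to -0.02 when these libraries were left out, and 2 of 4 filaments then had values above 0.

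**Figure D5:**
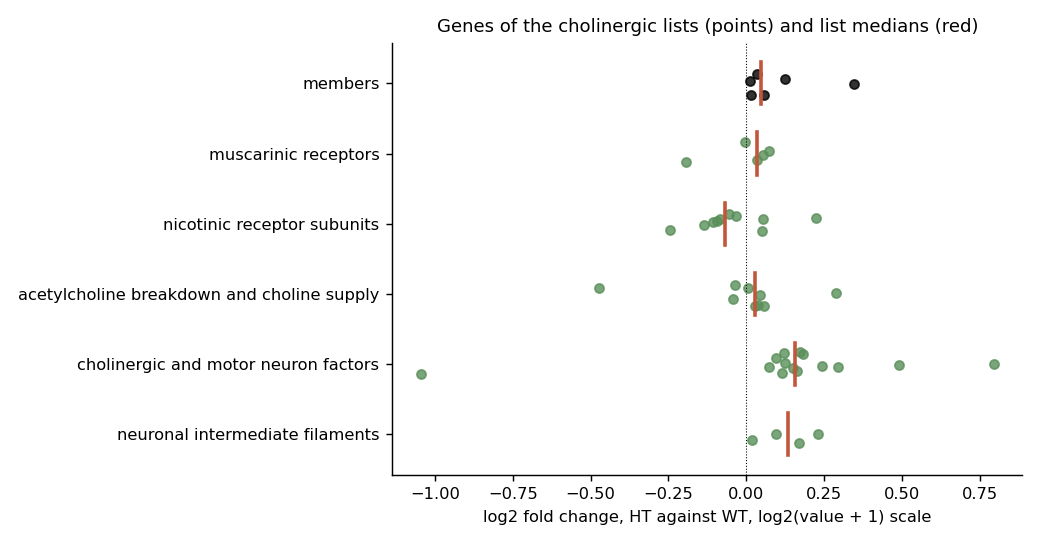
Log2 fold change of HT against WT for the tested members and the genes of 5 cholinergic lists, on the log2(value + 1) scale; each point is 1 gene and red lines are list medians. Medians range from -0.07 for the nicotinic subunits to 0.16 for the motor neuron factors, and no gene passed the threshold.

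Markers of tissue that can carry these genes or accompany the brain were read in each library, and 0 marker genes passed the threshold. The sensory ganglion markers, whose neurons also use *Prph* and *Isl1*, summed to 302 to 435 in HT and 278 to 351 in WT. Most of this was *Pou4f1* (225 ± 50.7 against 169 ± 24.4, SD, n = 5 each; limma p = 0.0229, adjusted p = 0.9997; exact permutation p = 0.0476), which brain nuclei also use. The exact permutation p of *Pou4f1* was 0.0794 without HT 4, 0.0952 without WT 2 and 0.171 without both. The noradrenergic and sympathetic markers, which accompany *Phox2a*, summed to 1081 to 1550.2 in HT and 1122 to 1197 in WT, with *Slc18a2* at 734 ± 55.4 against 714 ± 28.2 (SD, n = 5 each). Skeletal muscle markers were low, at 163 to 289.6 in HT and 198 to 487 in WT, led by *Acta1*. Their part in the member values was not tested.

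The caudal Hox list was led by *Hoxb5* (5.47 in WT 2 and 472 in HT 5), with 11 of 12 genes above 0 in the log2 fold change and 2 of 12 once WT 2 was left out. The pituitary list was led by *Gh*, which was 1476 in WT 2 and 838 in WT 5 and was listed at 0 in 6 libraries. Pineal markers summed to 17.7 to 113 in HT and 22.5 to 84.8 in WT, led by *Tph1*. Erythroid markers summed to 5960.4 to 13733 in HT and 4528 to 13889 in WT, led by *Hbb-bs*. Striatal markers, of the tissue that holds cholinergic interneurons and *Isl1* neurons, summed to 5947 to 6994 in HT and 6101 to 6389 in WT. Forebrain markers, led by *Neurod6*, were lowest in HT 4 (12139) against 15873 to 18685 in the other libraries. The pan-neuronal sum was lowest there as well (147527 against 149980.4 to 163379), although *Tubb3*, its marker with the highest mean count, was highest there (51819). Some markers were listed at 0 in at least 1 library, namely *Hoxb4*, *Hoxd4*, *Ckm*, *Tnni2*, *Gh*, *Cga*, *Tshb* and *Crx*. The markers *Mrgprd*, *Hand2*, *Myog*, *Prl*, *Lhb*, *Pou1f1* and *Asmt* were not analysed here.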

How the data were processed

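Whole-brain poly-A RNA of 5 HT and 5 WT mice was sequenced by the authors as stranded paired-end libraries, and only RNA above a minimum integrity was used. Per their methods and processing notes, the authors quantified reads with Salmon 1.1.0 on GRCm38 with GC bias correction, imported them with tximport and divided them by DESeq2 1.30.1 size factors. The annotation release and low-count filter are not given in the sources used here. The deposited signal values are these normalised read counts, which are not whole numbers, so no count test was run. Symbols and positions are from GENCODE M21 (18431 of 18444 identifiers matched) and promoters from RefSeq (7 of 7 members).

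The scale was log2(value + 1), and limma 3.58.1 in R 4.3.3 was used (trend, robust, two-sided, Benjamini-Hochberg over 17020 genes with a mean of at least 10, threshold 0.05). Fold changes on this scale understate changes of low genes. The exact permutation test was two-sided over 252 assignments, and correlations used 100000 permutations, where all 10 libraries were included. With libraries left out, all possible assignments or permutations of the libraries kept were used. Counting error was taken as Poisson in the normalised counts, at the mean over the libraries. The workflow was tested on simulated data. Samples were grouped by their labels. Alternatives changed the pseudocount, filter, scaling, weights, length and GC trend, replicate block and libraries included, and those without HT 4 and WT 2 together, with the Hox score, and correlations without WT 2 and permutation tests without HT 4 or WT 2 were chosen after seeing the data. The members and lists were chosen with earlier results of these data known. Named genes were the members, *Arid1b* and the 3 genes closest to each member. Also named were, in each cholinergic list, the 2 genes with the highest mean count and the 2 with the smallest p. In each marker list the gene with the highest mean count was named. These mean counts were not divided by transcript length, so their order is not one of abundance per kilobase. Some single genes are not reported here. As each mouse gave 1 library, p-values measure the spread between mice.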

Additional observations from a re-analysis of the deposited data

Results flagged for a closer look

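Values of the members, named genes and marker sums were checked for a library that lay far from the other 4 of its group, by the gap to its nearest neighbour divided by the range of the group (Dixon's ratio, critical value 0.71 for 5 libraries). Chance gives about 1 in 20 groups, or 4.9 of the 98 groups checked, and 7 were found. No member was among them. HT 4 was the outlying library in 6. It was low for *Arid1b* (ratio 0.735; 1505 against 2142 in the nearest HT library), for the muscarinic receptor *Chrm1* (0.788; 828 against 1208) and for the choline kinase *Chka* (0.851; 1960.2 against 2251). It was also low for *Pcyt1b* (0.799; 2459 against 3088) and in its total (0.732; 27.24 M against 28.55 M), and high for the heavy neurofilament *Nefh* (0.713; 1171 against 846). WT 2 was low for *Ret* (0.765; 599.96 against 754).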

How the results depend on the processing

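The members' comparisons were repeated under up to 24 alternatives. No member passed the limma threshold under any of them (smallest adjusted p 0.560, *Isl1* without HT 4), and *Chat*, *Ache*, *Isl1* and *Phox2a* kept their direction throughout. With 1 library left out in turn, the log2 fold change ranged from 0.19 to 0.44 for *Chat*, -0.061 to 0.092 for *Slc18a3*, -0.037 to 0.073 for *Slc5a7*, 0.022 to 0.11 for *Ache*, 0.092 to 0.17 for *Isl1*, -0.17 to 0.14 for *Prph* and -1.20 to -0.50 for *Phox2a*.

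*Slc18a3* turned to -0.076 with array weights, -0.0045 with the length and GC trend removed, -0.027 with that and HT 4 left out, -0.034 without HT 4, -0.041 without HT 5, -0.061 without WT 2, -0.012 without WT 5, -0.11 without HT 4 and WT 2, and -0.020 with the Hox covariate. *Slc5a7* turned to -0.066 with array weights, -0.076 with the trend removed and HT 4 left out, -0.037 without HT 4, -0.027 without WT 5 and -0.063 without HT 4 and WT 2. *Prph* turned to -0.041, -0.011 and -0.054 with array weights, the trend removed, and the trend removed with HT 4 left out. It was -0.071 without HT 4, -0.055 without HT 5, -0.17 without WT 2, -0.26 without HT 4 and WT 2, and -0.073 with the Hox covariate. The exact permutation p was under 0.05 for *Phox2a* without HT 4 (-1.20, p = 0.0476) and for *Isl1* without HT 4 (p = 0.0159) and without HT 4 and WT 2 (p = 0.0286). *Phox2a* was rerun with other pseudocounts, with no filter and with libraries left out, and the other alternatives were not run for it. With a minimum mean of 100, *Chat*, *Slc18a3* and *Phox2a* could not be fitted. The cause of these changes was not tested.

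The count of all genes past the threshold, 0 in the main analysis, was 1 with the trend removed and 2 with array weights, without HT 4, with the trend removed and HT 4 left out, and without HT 4 and WT 2. The counts of members, list genes and marker genes were 0 throughout. By the longest transcript, levels per kilobase moved to 8.32 (*Chat*), 51.5 (*Slc5a7*), 608 (*Ache*) and 159.6 (*Isl1*).

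Deviations of same-numbered libraries over all genes had correlations of -0.104 to 0.0926 over 5 pairs, none above 0.1, and the labels name nothing shared, so the numbers were not taken as pairs. As a hint from the data, 6 of 10 libraries were closest to their own number, each among the 5 libraries of the other group. The block also lowered the SE of *Hoxb5* from 1.52 to 0.61. With the replicate block, the log2 fold changes were those of the main analysis and 0 genes passed. The limma p fell from 0.0377 to 0.00939 for *Tbx20* and from 0.117 to 0.0437 for *Ret*. It rose from 0.136 to 0.181 for *Chat* and from 0.113 to 0.137 for *Isl1*. Whether the numbers mark something shared cannot be told from the labels. With the block and the trend removed, *Slc18a3* was -0.0045 and *Prph* -0.011.

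Of 63 alternative member correlations, 16 changed sign. For correlations, WT 2 and HT 4 were the only single libraries left out. Without WT 2 and without HT 4, in that order, r was -0.454 and 0.269 (*Chat*, *Slc18a3*) and -0.217 and 0.549 (*Chat*, *Prph*). In the same order it was -0.356 and 0.235 (*Slc18a3*, *Isl1*), 0.135 and -0.297 (*Slc5a7*, *Ache*) and -0.400 and 0.0754 (*Slc5a7*, *Isl1*). For the rest it was -0.220 and -0.230 (*Slc5a7*, *Prph*), -0.278 and 0.00871 (*Ache*, *Isl1*) and -0.559 and 0.256 (*Isl1*, *Prph*). Without the 2 farthest libraries r became -0.419 (*Chat*, *Slc18a3*), -0.156 (*Chat*, *Prph*), -0.177 (*Slc18a3*, *Isl1*), -0.502 (*Slc5a7*, *Ache*), 0.0548 (*Slc5a7*, *Isl1*), 0.456 (*Ache*, *Isl1*) and -0.228 (*Isl1*, *Prph*).

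Depth limits *Chat* and *Phox2a*, whose values are at most 29.4 and 17.7 normalised counts.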
